A study of Mus musculus with 4 samples.

Results

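The nuclear oxidative phosphorylation genes were compared in 2 SISC and 2 LISC libraries of sorted mouse intestinal stem cells. Members were chosen by symbol alone, as the Nduf genes of the a, b, c, s, v and ab series, the Uqcr genes, Sdha to Sdhd, the Cox4 to Cox8 genes and the Atp5 genes of the GENCODE vM21 annotation, without the genes named as pseudogenes. This gave 86 of 55487 genes: 37 of complex I, 4 of complex II, 8 of complex III, 19 of complex IV and 18 of complex V. The SISC libraries were small-intestinal cells sorted as Lgr5-EGFP-positive and CD24-negative, from tissue next to the pylorus and next to the cecum. The LISC libraries were Lgr5-EGFP-positive cells of the large intestine with no CD24 step named. Differences between SISC and LISC are called differences between the intestines below, but region and the CD24 step cannot be told apart in them. All mice were 6 to 12 weeks old, untreated and of the genotype Lgr5-EGFP-IRES-creERT2, in which the Lgr5 locus drives EGFP. The labels do not say whether replicate numbers mark separate mice or days, so p-values measure the spread between these libraries. In LISC that spread may be technical, while in SISC it includes different mice, by the sex-linked transcripts given below.

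Oxidative phosphorylation takes place in the inner mitochondrial membrane. Complexes I (NADH dehydrogenase) and II (succinate dehydrogenase) pass electrons to coenzyme Q, complex III (the cytochrome bc1 complex) passes them to cytochrome c, and complex IV (cytochrome c oxidase) to oxygen. Complexes I, III and IV pump protons, and complex V (ATP synthase) uses the proton gradient to make ATP. Most subunits are encoded in the nucleus and some in mitochondrial DNA, and Lgr5-positive crypt base cells are known for mitochondrial respiration.

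The 4 libraries held 12795434 to 27227715 expected counts. Nuclear rRNA genes took 24.1% and 28.5% of counts in replicate 1 of SISC and LISC, against 0.0917% and 0.0997% in replicate 2. The median gene length minus effective length, a measure of fragment length, was 312 and 236 bases in replicate 1 of SISC and LISC and 180 and 178 bases in replicate 2. SISC replicate 1 also stood apart in sex-linked transcripts, with Xist at 38.1 TPM and Ddx3y at 0. The other libraries had Xist at 0.02 to 0.08 TPM and Ddx3y at 3.87 to 13.2 TPM. The SISC replicates therefore did not come from the same mouse, and neither did SISC replicate 1 and LISC replicate 1. Ratios within replicate 1 thus compare libraries of unlike sex-linked pattern, and the part of this in X-linked members was not tested. Lgr5, the marker of the sort, was present at 18.2 and 48.8 TPM in SISC and 22.2 and 26.2 TPM in LISC. Summed over 9 immune markers the level was 1.31 to 5.43 CPM, the count scaled to the library's size with TMM factors, and over 8 stromal and endothelial markers 0.0728 to 1.44 CPM, with 7 and 8 of them, respectively, at 0 in at least 1 library. Paneth cell markers differed by library, with 8758 and 1348 CPM summed over 8 genes in SISC and 54.9 and 29.0 CPM in LISC. Beside any difference in these bulk samples, fewer cells of a type and less RNA per cell cannot be told apart.

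Promoter sequence was available for 69 of the 86 members, from 250 bases before to 50 bases after the start in RefSeq's GRCm38.p6 table. The words searched on both strands were GCATGCGC for NRF1, CCGGAAG for GABPA (the alpha subunit of NRF2) and AAGATGGCG for YY1, all factors known for binding respiratory chain promoters. No word lies within another. The NRF1 word was in 10 members' windows (14.5%) and in 3.05% of 27025 genes' windows. The GABPA word was in 16 (23.2%) against 9.93%, and the YY1 word in 7 (10.1%) against 1.64%. At least 1 word was in 27 windows (39.1%) against 13.6% of all genes. All genes here are the 27025 of that table, whether or not expressed in these libraries. Shares among expressed genes alone were not taken. The stretches of 80 bases that follow show such words in place. They were limited to stretches that lie wholly before the start and outside annotated exons, which left out members of higher TPM that hold a word, such as Cox6a1 and Atp5k. Within that limit, those of highest mean TPM were Atp5l and Ndufa6 for the NRF1 word and Atp5e and Uqcr11 for the GABPA word. They are shown 5′ to 3′ on the gene's strand, with matches in capitals, where CTTCCGG is the reverse complement of the GABPA word. The Atp5l stretch is chr9:44920913-44920992, the Ndufa6 stretch chr15:82354331-82354410, the Atp5e stretch chr2:174464161-174464240 and the Uqcr11 stretch chr10:80406845-80406924, all on the minus strand.
Atp5l: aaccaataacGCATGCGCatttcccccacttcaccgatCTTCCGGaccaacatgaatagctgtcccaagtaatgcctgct
Ndufa6: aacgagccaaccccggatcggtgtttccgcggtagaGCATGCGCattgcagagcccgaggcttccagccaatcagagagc
Atp5e: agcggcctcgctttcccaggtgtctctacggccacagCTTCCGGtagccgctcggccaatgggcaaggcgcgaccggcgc
Uqcr11: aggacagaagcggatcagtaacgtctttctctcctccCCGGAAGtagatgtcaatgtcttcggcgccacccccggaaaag
The first NRF1 match begins 240 bases before the start in Atp5l and 83 bases before it in Ndufa6, and the GABPA match begins 102 bases before the start in Atp5e and 66 in Uqcr11. Cox7a1 and Ndufa4, the members with the largest difference in each direction between the intestines, held none of these words in their windows. A match or its absence describes letters only.

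Of the 86 members, 79 passed the filter on low counts and were tested between LISC and SISC. None was called at an adjusted p of 0.05 by edgeR's quasi-likelihood test, none had an unadjusted p below 0.05, and DESeq2 called 0 as well. Among all 14165 genes tested, edgeR called 2.20% (1.45% higher in LISC, 206 genes, and 0.741% higher in SISC, 105 genes), 13.4% had an unadjusted p below 0.05 and DESeq2 called 8.35%. The members' median log2 difference, LISC over SISC, was 0.12, with the middle of the distribution between 0.02 and 0.21 and the extremes at −0.75 (Ndufa4) and 2.04 (Cox7a1). In sign, 60 members had a difference above 0 and 19 below. The median over all genes was −0.02, with quartiles at −0.30 and 0.35. The median standard error was 0.50 for members and 0.38 for all genes, and the 95% interval of the difference lay within 2-fold of equality for 6 members and within 4-fold for 63. The test therefore bounds most members to less than a 4-fold difference but few to less than a 2-fold one. Leaving out 1 library at a time turned the sign of the median in every complex, with a range from −0.40 to 0.80 in complex I, −0.38 to 0.06 in complex II, −0.36 to 0.71 in complex III, −0.32 to 0.81 in complex IV and −0.41 to 0.50 in complex V.

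**Figure D1:**
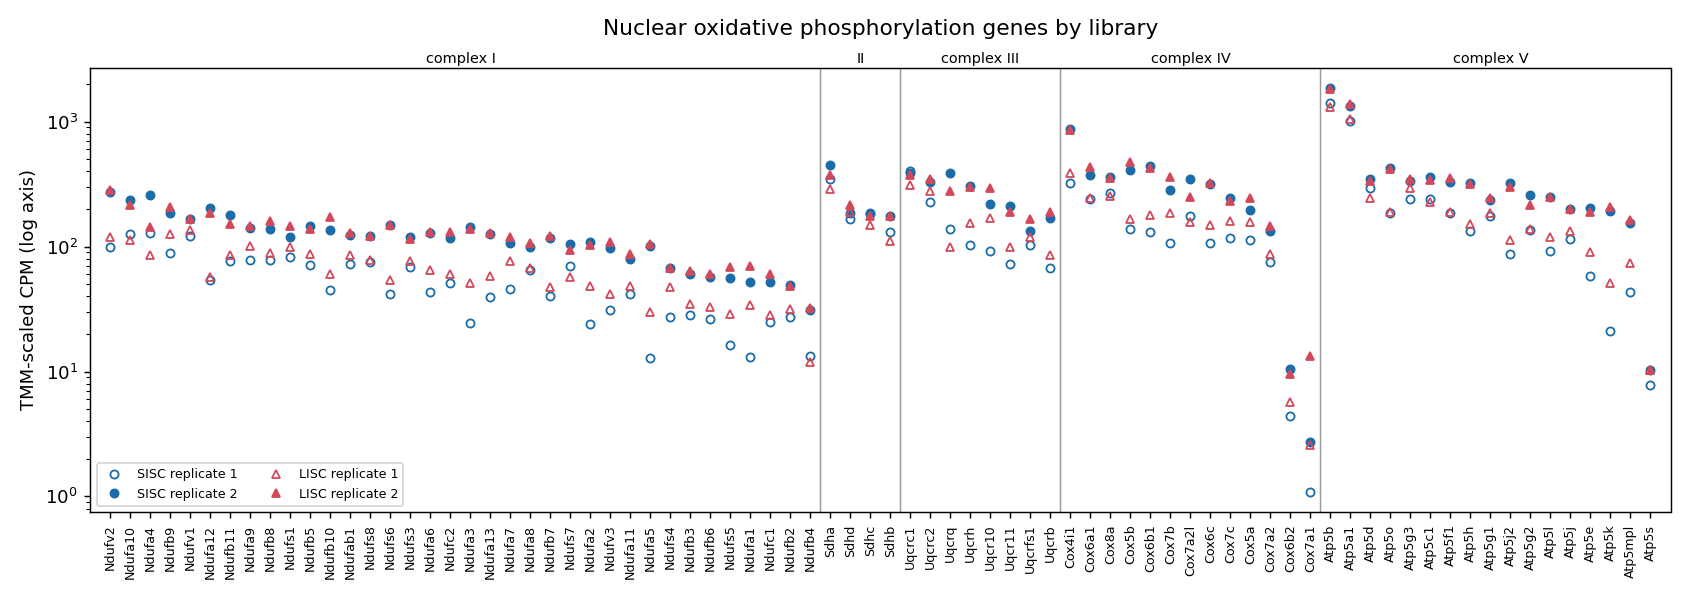
Level of the tested members that are drawn, in each library, as TMM-scaled CPM on a log axis, ordered by complex. Both replicate 2 libraries lie above both replicate 1 libraries for 75 of the 79 tested members.

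**Figure D2:**
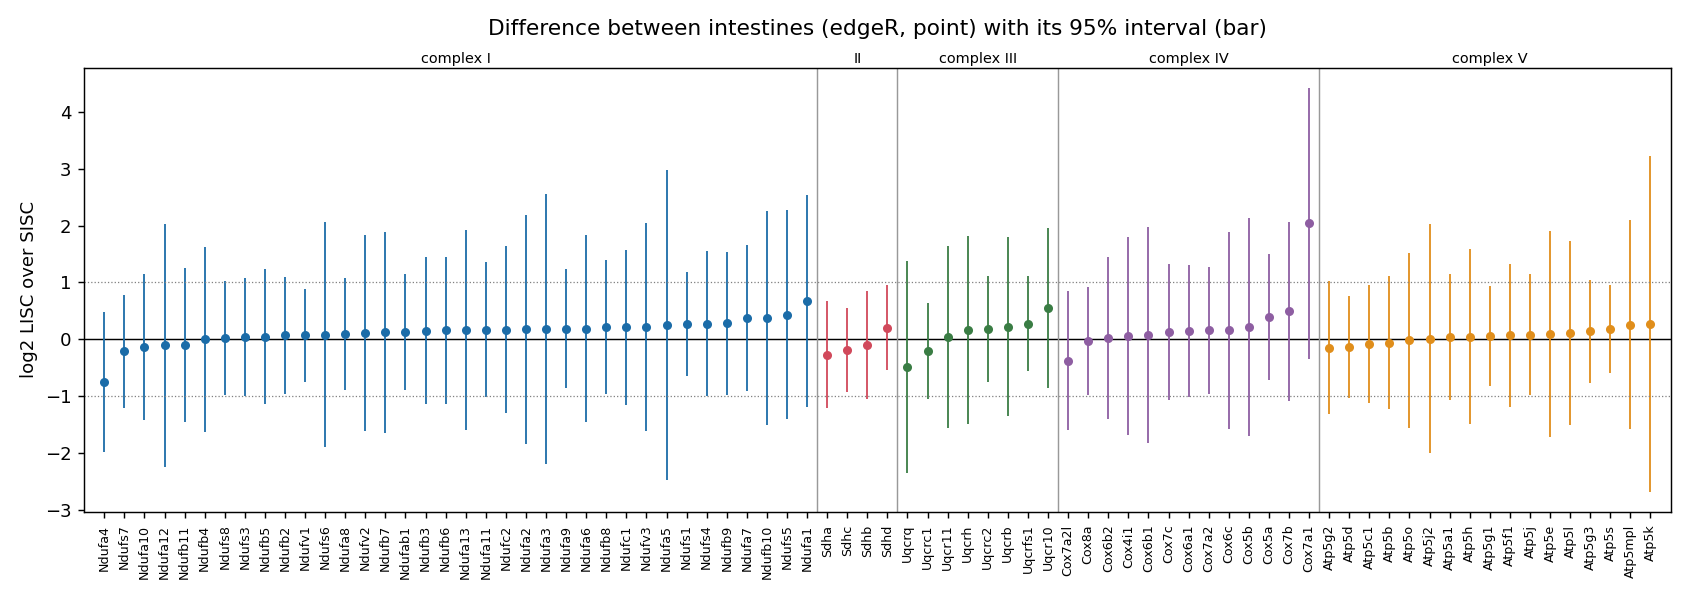
Difference between the intestines for the tested members that are drawn, as log2 LISC over SISC from edgeR (point) with its 95% interval (bar), grouped by complex. The differences run from −0.75 for Ndufa4 to 2.04 for Cox7a1.

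On the per-length TPM scale, the 86 members together made up 14240 and 40280 TPM in SISC replicates 1 and 2 and 12500 and 43600 TPM in LISC replicates 1 and 2. LISC was thus at 0.878 of SISC within replicate 1 and at 1.08 of SISC within replicate 2, so that the direction turned with the replicate number. Their share of counts was 0.874% (95% Wilson interval 0.869 to 0.878) and 2.25% (2.248 to 2.259) in SISC, and 0.958% (0.953 to 0.964) and 2.31% (2.299 to 2.311) in LISC. These intervals cover counting error only. Complex V held 31.5% to 32.9% of the members' TPM in the 4 libraries, complex IV 25.9% to 27.0%, complex I 23.3% to 26.4%, complex III 13.3% to 14.3% and complex II 2.06% to 3.14%. This order held in every library except SISC replicate 2, where complex I (26.4%) lay just above complex IV (25.9%). The sums there were 10640 and 10420 TPM, and Ndufa4, counted with complex I by its symbol, gave 788 TPM. That exception therefore rests on where Ndufa4 is counted.

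In complex I, all 37 members were tested, 30 lay above 0 and 7 below, and the median log2 difference was 0.16. Ndufa4, long counted with complex I and also found with cytochrome c oxidase, had the most negative difference and the highest mean TPM of the complex. Its gene (ENSMUSG00000029632) lies on the minus strand of chromosome 6 from 11900292 to 11907497 in GRCm38. Ndufa4 was at 129 and 258 CPM in SISC and, in LISC, 86.5 and 143 CPM. LISC was lower within each replicate number, at −0.57 and −0.85 on the log2 scale, but the groups overlapped because SISC replicate 1 lay below LISC replicate 2. The edgeR difference was −0.75 ± 0.48 (SE, 95% interval −1.98 to 0.48, adjusted p = 0.699). Ndufa1, an X-linked accessory subunit of the membrane arm, had the largest positive difference. It was at 13.1 and 52.1 CPM in SISC against 34.4 and 70.0 CPM in LISC, with SISC replicate 1 lowest and the groups overlapping. Its difference was 0.67 ± 0.73 (−1.20 to 2.55, adjusted p = 0.908), and 1.36 and 0.42 within replicates 1 and 2. Ndufa3, an accessory subunit and the other highly expressed member, was at 24.4 and 144 CPM in SISC and, in LISC, 51.0 and 140 CPM, a difference of 0.18 ± 0.92.

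The core subunits Ndufs1, Ndufs3, Ndufs7, Ndufs8, Ndufv1 and Ndufv2 belong to the part of complex I that takes electrons from NADH and passes them to coenzyme Q. Their log2 differences ran from −0.21 for Ndufs7 to 0.27 for Ndufs1, and none of them had an edgeR adjusted p below 0.951. Ndufs1, the largest of them, was at 82.5 and 120 CPM in SISC against 99.5 and 145 CPM in LISC, which is 0.27 higher on the log2 scale in LISC within each replicate number. Ndufv1, the FMN-binding subunit at which NADH enters, was at 122 and 166 CPM in SISC and, in LISC, 135 and 167 CPM. Of the complex I members it had the smallest ratio between replicate numbers. Across the complex the mean TPM over the 4 libraries ran from 42.0 for Ndufb4 to 428 for Ndufa4.

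The 4 complex II members, which are also the succinate dehydrogenase step of the tricarboxylic acid cycle, had the lowest median ratio between replicate numbers of any complex. Their median log2 difference, LISC over SISC, was −0.14. Sdha, the flavin-bearing catalytic subunit, was at 346 and 454 CPM in SISC against 288 and 376 CPM in LISC, or −0.27 within each replicate number. Sdhb, the iron-sulfur subunit, was at 132 and 174 CPM in SISC and, in LISC, 110 and 176 CPM. The membrane anchors Sdhc and Sdhd, which bind coenzyme Q, were among the 3 members whose groups did not overlap. Sdhc was at 184 and 186 CPM in SISC against 149 and 175 CPM in LISC, and Sdhd at 168 and 185 CPM in SISC and, in LISC, 190 and 217 CPM. The anchors therefore lay in opposite directions, by −0.19 ± 0.29 for Sdhc (adjusted p = 0.958) and 0.21 ± 0.29 for Sdhd (−0.55 to 0.96, adjusted p = 0.957), and neither difference exceeded its error. Sdhd was the only tested member with both LISC libraries above both SISC libraries, where 21.9% of all genes tested were. Sdhc and Uqcrc1 had both below, where 18.4% of all genes were.

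In complex III, 6 of 8 members lay above 0 and 2 below, with a median of 0.17. Uqcr10, a small accessory subunit, was at 92.9 and 222 CPM in SISC against 169 and 293 CPM in LISC. It was higher in LISC within both replicate numbers, by 0.86 and 0.41, and its difference was 0.56 ± 0.55 (−0.85 to 1.96, adjusted p = 0.887). Uqcrq, the subunit that binds near cytochrome b, was at 138 and 392 CPM in SISC and, in LISC, 98.7 and 280 CPM. It lay 0.48 lower on the log2 scale in LISC within each replicate number, and its difference was −0.48 ± 0.72 (−2.35 to 1.38, adjusted p = 0.958). Uqcr10 and Uqcrq had the highest mean TPM of the complex, so its most abundant members lay on opposite sides of 0. The core subunit Uqcrc1 was at 407 and 386 CPM in SISC against 312 and 371 CPM in LISC, a difference of −0.21 ± 0.33 (−1.06 to 0.63). Uqcrfs1, the Rieske iron-sulfur protein, was at 103 and 133 CPM in SISC and, in LISC, 120 and 166 CPM (0.28 ± 0.32).

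In complex IV, 13 of 19 members were tested, 11 above 0 and 2 below, with a median of 0.14. Many subunits of this complex come as paralogs used in different tissues, and the untested members were mostly the forms known from muscle, lung or testis. Cox7b2, Cox8b and Cox8c had 0 counts in every library, and Cox4i2 and Cox6a2 had 1 count each, in SISC replicate 2. A count of 0 allows up to 0.0937 to 0.278 CPM in these libraries. Cox6c2, annotated as a processed pseudogene, had 0 and 3 counts in SISC and 0 and 2 in LISC. Cox4i1, the common form of the subunit known for inhibition of the enzyme by ATP, was at 320 and 875 CPM in SISC against 388 and 858 CPM in LISC (0.06 ± 0.67). Cox8a was at 268 and 358 CPM in SISC and, in LISC, 254 and 356 CPM (−0.04 ± 0.37), and the X-linked Cox7b at 107 and 285 CPM in SISC against 187 and 364 CPM in LISC (0.49 ± 0.61). Cox6a1 and Cox6b1 differed by 0.14 ± 0.45 and 0.08 ± 0.74. Cox6b2, known as the testis form, was detected at 4.37 and 10.6 CPM in SISC and, in LISC, 5.65 and 9.52 CPM, between 2.69% and 5.13% of the Cox6b TPM.

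Cox7a1, known as the heart and skeletal muscle form of subunit VIIa, had the largest difference of any member. The gene (ENSMUSG00000074218) lies on the plus strand of chromosome 7 from 30184144 to 30186078. It had 15 and 87 counts in SISC and 28 and 384 counts in LISC, or 1.09, 2.72, 2.60 and 13.2 CPM in the same order. LISC replicate 2 alone was high, and LISC replicate 1 lay just below SISC replicate 2, so the groups overlapped. The difference was 2.04 ± 0.93 (−0.35 to 4.43, adjusted p = 0.476), and 0.96 and 2.09 within replicates 1 and 2. The difference was 0.44 without LISC replicate 2. Without the filter on low counts, edgeR gave Cox7a1 an adjusted p of 0.0117, where 5.86% of all genes were called. It was the only member at least 1.5-fold higher in LISC within each replicate number, where 11.3% of all genes tested were, and no member was that much lower, where 6.13% were. Per length, Cox7a1 made up 2.28% and 1.85% of the Cox7a TPM in SISC and 3.91% and 9.43% in LISC. The ubiquitous Cox7a2 made up 41.1% to 50.8%, and Cox7a2l, known for joining complexes III and IV into supercomplexes, 50.4% and 57.0% in SISC and 45.3% and 43.2% in LISC. In CPM, Cox7a2l was at 177 and 350 in SISC and 156 and 249 in LISC, a difference of −0.38 ± 0.48 (−1.60 to 0.85, adjusted p = 0.944).

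**Figure D3:**
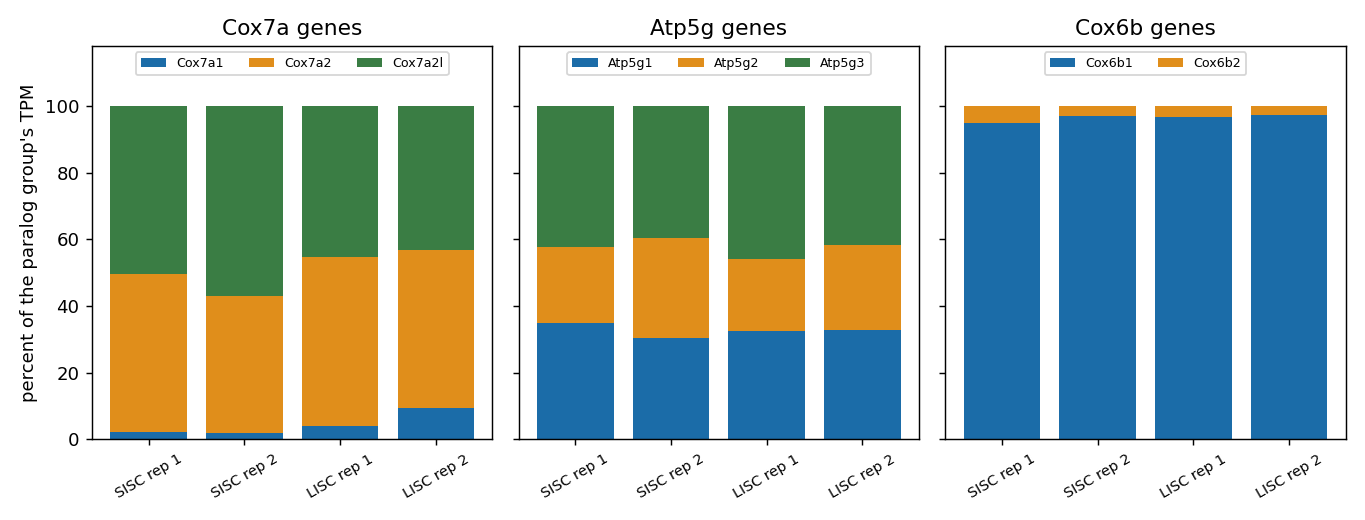
Share of each paralog group's TPM taken by each of its genes, in percent, in the 4 libraries. The Cox7a1 share is highest in LISC replicate 2 at 9.43%, and the order of the 3 Atp5g genes is the same in every library.

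In complex V, 17 of 18 members were tested, 12 above 0 and 5 below, with a median of 0.06; the untested one is a second gene with the symbol Atp5o, at 0 counts throughout. Atp5b, the catalytic beta subunit of the F1 head, had the highest mean TPM of all members and was at 1424 and 1870 CPM in SISC against 1321 and 1834 CPM in LISC. Its difference was −0.06 ± 0.45 (−1.23 to 1.11). Atp5a1, the alpha subunit beside it, was at 1018 and 1347 CPM in SISC and, in LISC, 1050 and 1384 CPM. In both genes the libraries paired by replicate number rather than by intestine. The identical c subunit of the rotor ring is encoded by Atp5g1, Atp5g2 and Atp5g3, whose differences were 0.06 ± 0.34, −0.15 ± 0.45 and 0.14 ± 0.35. Atp5g3 gave 39.7% to 46.0% of their TPM, Atp5g1 30.4% to 34.9% and Atp5g2 21.4% to 29.9%, and this order was the same in each library, with Atp5g1 (30.4%) just above Atp5g2 (29.9%) in SISC replicate 2. Atp5k, the membrane subunit e known for holding ATP synthase dimers, had the largest standard error of the tested members. It was at 20.9 and 192 CPM in SISC against 51.4 and 206 CPM in LISC, and its difference was 0.27 ± 1.15 (−2.68 to 3.22).

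For most members the replicate numbers differed more than the intestines. Both replicate 2 libraries lay above both replicate 1 libraries in 75 of 79 members (94.9%), against 27.3% of all genes tested, and in 0 members did they lie below, against 22.3%. In 67 of 79 members the smaller of the replicate differences exceeded the larger of the intestine differences, which held for 4329 of all 14165 genes. Replicate 2 was the higher library for 78 members in SISC, against 51.0% of all genes, and for 78 in LISC, against 55.5%. The median log2 ratio of replicate 2 over replicate 1 was 1.05 in SISC and 0.82 in LISC for the members and 0.02 and 0.08 for all genes. By complex it was 1.12 and 0.85 in complex I, 0.27 and 0.31 in complex II, 1.28 and 0.86 in complex III, 1.04 and 0.82 in complex IV, and 0.82 and 0.63 in complex V. At least 2-fold higher in replicate 2 within each group were 30 members (38.0%), against 2.89% of all genes, and 0 members were that much lower, against 4.19%. The rRNA share, the fragment length and the Paneth marker level given above also differed between replicate numbers, and the part of fragment length and Paneth markers in this ratio was not tested. With the rRNA genes taken out of the TPM, the members' summed TPM was 2.28 times higher in replicate 2 of SISC and 2.84 times higher in replicate 2 of LISC, and it was 2.83 and 3.49 times higher as deposited.

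In SISC the highest log2 ratios between replicate numbers were those of Atp5k, at 3.17, and Ndufa5, an accessory subunit of complex I, at 2.91. Atp5k was at 1.99 and Ndufa5 at 1.78 in LISC, where Cox7a1 was highest, at 2.15. The lowest were Uqcrc1 at −0.08 in SISC and Atp5s, a coupling factor of ATP synthase rather than a core subunit, at −0.02 in LISC. Across the 79 members, which are not independent replicates, the ratio in SISC and the ratio in LISC had Pearson's r of 0.817 and Spearman's rho of 0.855, and over all genes tested 0.666 and 0.622. The ratios of SISC and LISC thus tended to rise together.

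The ratio fell with transcript length. The 30 members with a mean transcript length under 600 bases had median log2 ratios of 1.55 in SISC and 1.07 in LISC, the 28 of 600 to 1000 bases 1.07 and 0.77, the 19 of 1000 to 2000 bases 0.54 and 0.52, and the 2 longer ones 0.40 and 0.39. Over all genes the medians in the same length classes were 0.93 and 0.64, 0.68 and 0.56, 0.26 and 0.24, and −0.17 and −0.07. In each class the members' medians lay above those of all genes, and members were short, with a median length of 694 bases against 2368 for all genes tested. Between log10 length and the ratio, r was −0.616 in SISC and −0.561 in LISC across members, and −0.341 and −0.198 across all genes. Length moves with the ratio here as a description; its part in the ratio was not tested.

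**Figure D4:**
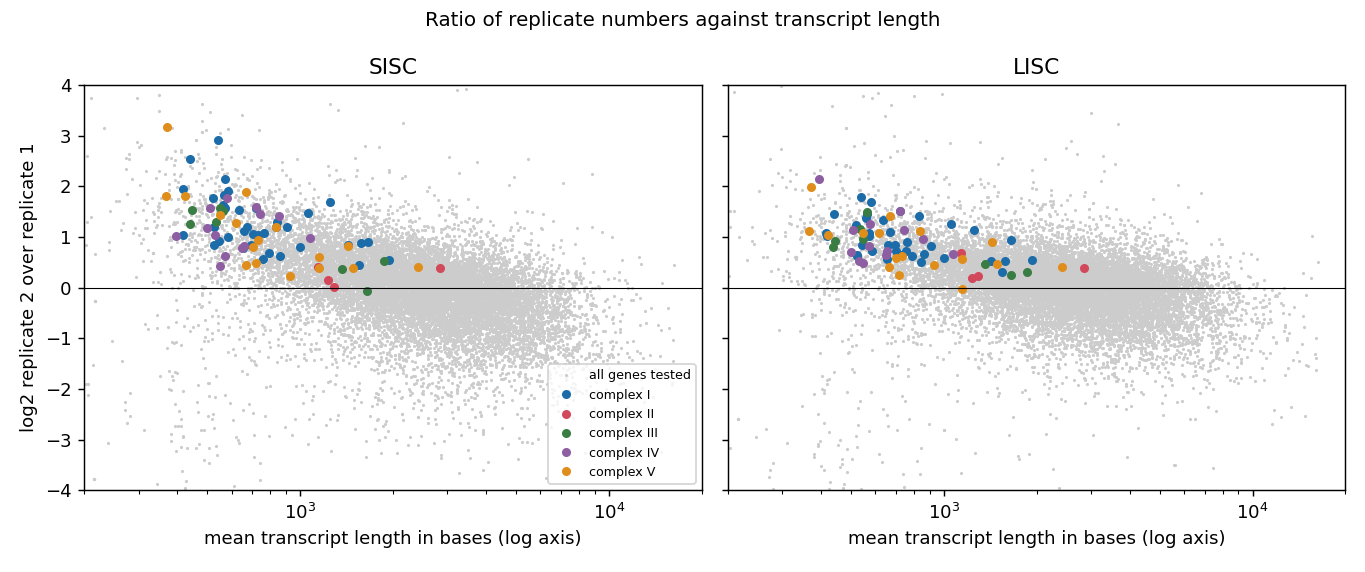
Log2 ratio of replicate 2 over replicate 1 against mean transcript length in bases (log axis), in SISC and LISC, with members coloured by complex over all genes tested in grey. Short members lie highest, with Atp5k at 3.17 in SISC.

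Taken within a replicate number, the difference between the intestines was smaller in replicate 2. The members' median log2 difference was 0.26 in replicate 1 and 0.02 in replicate 2 on the CPM scale. Above 0 lay 65 members (82.3%) in replicate 1 and 45 (57.0%) in replicate 2, against 49.7% of all genes in each. The LISC level was within 1.5-fold of SISC for 64 members (81.0%) in replicate 1 and 77 members (97.5%) in replicate 2. Among 3385 genes with a mean of at least 50 CPM, the corresponding shares were 80.4% and 81.5%. The members outside that range in replicate 2 were Ndufa4 and Cox7a1. By complex, the medians in replicates 1 and 2 were 0.27 and 0.05 for complex I, −0.26 and −0.04 for complex II, 0.31 and 0.04 for complex III, 0.34 and 0.03 for complex IV and 0.19 and −0.01 for complex V. Across members the differences within the 2 replicate numbers had r of 0.472 and rho of 0.406, against 0.778 and 0.577 across all genes. On the summed TPM scale, LISC over SISC in replicates 1 and 2 was 0.949 and 1.07 for complex I, 0.765 and 1.09 for complex II, 0.871 and 1.07 for complex III, 0.877 and 1.13 for complex IV, and 0.842 and 1.06 for complex V. In replicate 1 the scales had opposite directions for complexes I, III, IV and V and the same, lower in LISC, for complex II. In replicate 2 they had the same direction, higher in LISC, for complexes I, III and IV and opposite directions for complexes II and V.

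**Figure D5:**
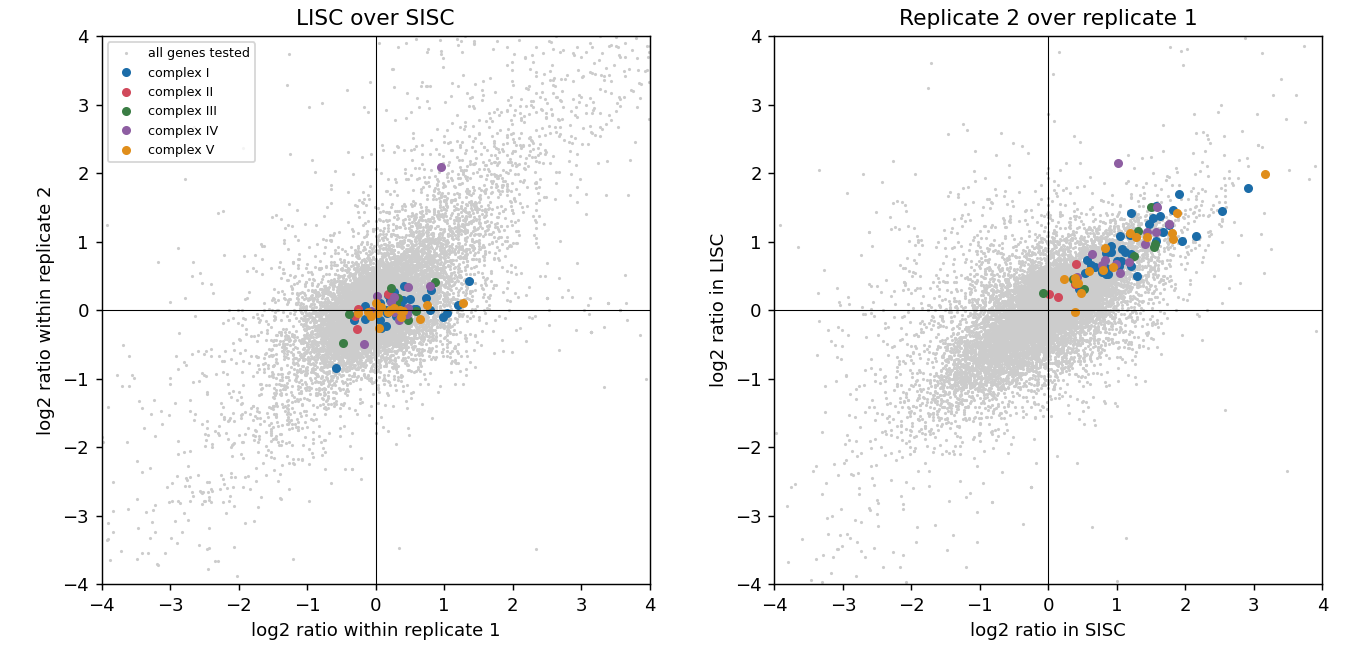
Log2 ratios of single libraries for members (coloured by complex) and all genes tested (grey): LISC over SISC in replicate 2 against replicate 1, and replicate 2 over replicate 1 in LISC against SISC. Members lie near 0 in the first panel and, with a median of 1.05 in SISC and 0.82 in LISC, up and to the right in the second; 265 and 80 other genes lie outside the axes.

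Other genes of the pathway were taken from lists, whose counts of calls stand beside the 2.20% of all genes tested that were called. In lists of this size, 0 called genes is near that share. The 13 subunits encoded in mitochondrial DNA included 0 called members, with a median log2 difference of −0.36, at −0.74 in replicate 1 and −0.02 in replicate 2. Their median log2 ratio of replicate 2 over replicate 1 was −0.58 in SISC and 0.42 in LISC, where the nuclear members' medians were above 0 in both. Single genes ran from −1.01 for mt-Nd6 to 4.99 for mt-Nd3 in SISC. In LISC the same genes were at the extremes, at −1.14 and 4.33. Above 0 in both were mt-Nd3, mt-Nd4l, mt-Atp8, mt-Co2 and mt-Co3, and the others lay below 0 in SISC. mt-Nd2, a core subunit of complex I, was at 5221 and 3158 CPM in SISC and, in LISC, 1979 and 2300 CPM (−0.97 ± 0.52, edgeR adjusted p = 0.60). Among 6 tested complex subunits and partners that the symbol rule misses, 0 were called, and Higd1a, which associates with cytochrome c oxidase under low oxygen, was at 12.2 and 20.02 CPM in SISC against 83.4 and 142 CPM in LISC. Both its LISC libraries lay far above both SISC libraries (2.80 ± 0.44, edgeR adjusted p = 0.0564), and 5 of 12 alternatives, DESeq2 among them, called it. Of all genes tested, 21.9% had both LISC libraries above both SISC libraries. Cyc1, the heme-bearing cytochrome c1 of complex III, was at 275 and 255 CPM in SISC and, in LISC, 252 and 272 CPM. Of 51 assembly factors 0 were called (median 0.09), and Surf1, which helps to build cytochrome c oxidase, was at 23.4 and 43.3 CPM in SISC against 46.2 and 60.6 CPM in LISC (0.68 ± 0.38, adjusted p = 0.630).

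Among 16 tested genes of cytochrome c and coenzyme Q synthesis 0 were called, with a median of −0.01. Coq8a, an atypical kinase needed for coenzyme Q synthesis, was at 158 and 127 CPM in SISC and, in LISC, 64.2 and 60.9 CPM (−1.19 ± 0.28, adjusted p = 0.136, called by 2 of 12 alternatives). Of 19 genes of the tricarboxylic acid cycle 0 were called (median 0.12), and of 20 regulators of mitochondrial gene expression 0 (median −0.13). Esrrg, a nuclear receptor known for driving oxidative genes, was at 37.5 and 48.1 CPM in SISC against 16.8 and 18.8 CPM in LISC (−1.27 ± 0.25, adjusted p = 0.0942). Its groups did not overlap, with both LISC libraries below both SISC libraries, as in 18.4% of all genes tested. The adjusted p missed the threshold, and 3 of 12 alternatives called Esrrg. Tfam, which packages and transcribes mitochondrial DNA, was at 60.1 and 96.8 CPM in SISC and, in LISC, 59.9 and 73.0 CPM. Of the 24 glycolysis and lactate genes, 1 was called higher in LISC, against 1.45% of all genes, and 0 higher in SISC, against 0.741%. The gene was Hk1, the hexokinase that binds the mitochondrial outer membrane, at 4.66 and 1.53 CPM in SISC against 65.8 and 68.6 CPM in LISC (4.48 ± 0.60, edgeR adjusted p = 0.0431), and all 12 alternatives called it, with adjusted p from 1.82e-24 to 0.0498. By DESeq2, which called 8.35% of all genes, 0 of the mitochondrially encoded subunits, assembly factors and cycle genes were called, and none of these genes had an unadjusted edgeR p below 0.05. DESeq2 called Coq8a, Esrrg and Higd1a, each alone in its list, and 5 glycolysis and lactate genes, 3 higher in LISC and 2 higher in SISC.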

How the data were processed

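Poly(A)-selected RNA was made into directional libraries, per the labels' protocols, and the submitters' processing notes name STAR 2.7.2b, RSEM 1.2.31 and GRCm38 (mm10). Annotation release, strand setting and trimming were not given in these sources. Deposited values are RSEM expected counts, which share out reads of more than 1 possible gene by estimated abundance, and TPM, which divides by effective length. The deposited posterior standard deviation of the count, a score of that sharing, was at most 4.05% of the count for any tested member, but near copies remain less certain. The deposited gene and effective lengths were used as other values.

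Rounded expected counts went into edgeR 4.0.16 under R 4.3.3 (quasi-likelihood test, group as the only term, TMM, filterByExpr with a minimum count of 10) over 14165 genes, with Benjamini-Hochberg adjustment at 0.05. Standard errors are the log2 difference over the square root of F. The common biological coefficient of variation was 43.4%. Ratios of single libraries add 0.5 CPM. Values in pairs are replicates 1 and 2 in that order. DESeq2 1.42.0, limma 3.58.1 on log2(TPM + 1) and log2(TPM + 0.1), other scalings and filters, and leaving out each library were alternatives. The tests were also run on simulated counts that gave all genes a common dispersion. That check does not cover the spread of single genes in these libraries, and its outcome is not given here. Symbols came from GENCODE vM21 (55141 of 55487 identifiers matched). Promoter words were searched in Python 3.11.15.

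The members and all lists were chosen with earlier results of these data known. Members were named if called, if among the 2 of highest mean TPM in their complex, if furthest up or down in it, or if an Sdh gene or in the Cox4i, Cox6a, Cox6b, Cox7a, Cox7b, Cox8 or Atp5g groups; in other lists, the genes named were the called ones, or else those of largest difference or highest TPM. The complex I core subunits, Uqcrc1, Uqcrfs1, Atp5a1, Ndufa5, Ndufb4 and Atp5s were added after their values were seen. Some genes that the rule picked in the other lists are not given, such as Atpif1, mt-Atp8, Cox17, Mdh2 and Pcx. The value of 1 tested member is not reported here, and it is not drawn in the plots of levels and of differences by gene.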

Additional observations from a re-analysis of the deposited data

How the results depend on the processing

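With 2 libraries a group, the members' median log2 difference rested on which libraries were used: leaving out 1 library moved it from 0.12 to between −0.39 (without LISC replicate 2) and 0.71 (without SISC replicate 2), with −0.30 without SISC replicate 1 and 0.49 without LISC replicate 1. Other scalings, filters and tools gave −0.00 to 0.17. Using replicate number 1 alone (0.26), number 2 alone (0.02) or leaving out Atp5s, Cox6c2 and the second Atp5o gene were alternatives chosen after seeing the data.

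Members called stayed at 0 except for Cox7a1 without the low-count filter (1 higher in LISC, adjusted p = 0.0117) and under the replicate block (1 higher in LISC, Cox7a1, adjusted p = 0.0486, and 1 higher in SISC, Ndufa4, −0.72, adjusted p = 0.0479, where 10.9% of all genes were called). The labels do not say that a number marks a shared batch. Deviations of same-numbered libraries correlated at 0.666 over all genes tested and 0.817 over members, with 2 pairs. With 2 libraries a group, this restates the correlation of the replicate ratios given above and is no further check. Over all genes, calls higher in LISC and in SISC (206 and 105) became 785 and 398 with DESeq2, 942 and 465 without the filter, 1015 and 524 with the replicate block, 353 and 172 with limma on log2(TPM + 1) and 372 and 179 on log2(TPM + 0.1). Leaving out 1 library gave 143 to 348 and 60 to 151, with the extremes 348 without SISC replicate 1 and 60 without LISC replicate 2. Of 276 values for 23 tested named genes, 232 kept direction and call, 41 changed sign uncalled and 3 became calls.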

Other observations

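The 7 genes named as pseudogenes and left out of the members had at most 7 counts in any library (Atp5l2-ps, in SISC replicate 2). The posterior standard deviation of the count was 0 for 63 and 54 of the tested members in SISC and 61 and 53 in LISC. It was highest for Atp5g2 in SISC, at 3.08% and 2.19% of the count, and for Ndufb4 at 4.05% in LISC replicate 1.

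Transcripts of other cell types that were no members differed between libraries. Goblet cell markers summed to 2068 and 452 CPM over 8 genes in SISC and 3371 and 5708 CPM in LISC, and tuft cell markers to 18.9 and 4.12 CPM in SISC and, in LISC, 69.6 and 112 CPM. Enteroendocrine markers summed to 182 and 32.1 CPM in SISC against 83.6 and 114 CPM in LISC. Stem cell markers summed to 9427 and 14430 CPM in SISC and, in LISC, 1103 and 852 CPM, and 3 of 11 were called, all higher in SISC (Olfm4, Igfbp4 and Tnfrsf19), against 0.741% of all genes. Without Olfm4, which carried most of the sum, the other 10 summed to 1662 and 1956 CPM in SISC against 1012 and 744 CPM in LISC. Small-intestinal absorptive markers summed to 1356 and 720 CPM in SISC against 592 and 570 CPM in LISC, and without Mgam, the most abundant, to 391 and 322 CPM in SISC against 74.8 and 176 CPM in LISC. Of these 10 markers 3 were called, all higher in SISC (Sis, Mttp and Apoa4). Large-intestinal absorptive markers summed to 230.0 and 169 CPM in SISC and, in LISC, 594 and 1814 CPM. Of the 9 tested, 3 were called higher in LISC (Car4, Cyp2c55 and Scnn1a), as was 1 of 9 enteroendocrine markers (Sct), against 1.45% of all genes. Of these large-intestinal markers 8 lay above 0 and 1, Aqp4, below. Aqp4 was at 121 and 121 CPM in SISC, the largest part of both sums, and 62.8 and 59.7 CPM in LISC. Among the enteroendocrine markers 4 lay above 0 and 5 below, with Cck lowest at −3.93. By edgeR 0 goblet, tuft or Paneth markers were called. An unadjusted edgeR p below 0.05 was found for 2 goblet, 4 tuft and 8 Paneth markers, against 13.4% of all genes. DESeq2 called 3 goblet and 4 tuft markers higher in LISC, against 5.54% of all genes, and 8 Paneth markers higher in SISC, against 2.81%. It also called 6 stem cell and 7 small-intestinal absorptive markers higher in SISC. Of the large-intestinal absorptive markers DESeq2 called 7 higher in LISC and 1 (Aqp4) higher in SISC. Of the enteroendocrine markers it called 1 in each direction (Sct and Cck). The part of these markers in the members' values was not tested.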
